A study of Mus musculus with 12 samples.

Results

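The genes described here carry or restrain the transforming growth factor beta (TGF-beta) signal, and were followed in mouse leukemia cells with and without Rictor, a subunit of the kinase complex mTORC2. They are the ligand gene Tgfb1, the receptor genes Tgfbr1 and Tgfbr2, the signalling Smads Smad2, Smad3 and Smad4, the inhibitory Smad7, and the repressor genes Ski, Skil and Tgif1. These 10 genes were chosen by name out of 18194 genes that had a probe set of their own on the array. A probe set is the group of probes that reads 1 transcript region. The genes had 23 probe sets, of which 16 were bright enough to be tested, and every gene had at least 1 among the 16.

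Gene expression was measured on 12 Affymetrix arrays in 4 groups of 3. MLL-AF9 Control and MLL-NRIP3 Control were leukemia cells labelled Rictor wild type, and MLL-AF9 RictorΔ/Δ and MLL-NRIP3 RictorΔ/Δ were labelled as carrying the Rictor deletion. MLL-AF9 and MLL-NRIP3 are fusions of the MLL gene that drive leukemia, and every group carried one of them, so the controls are leukemia and not normal marrow. The cells, called K+G– in the labels, were sorted from bone marrow after a first transplantation, once CD45.2+ cells had passed 50% of the white cells in the blood of the recipients; the labels also give peripheral blood as host tissue. The sources used here give neither the age of the mice, nor how Rictor was deleted, nor whether a group's arrays are separate mice. The p-values therefore reflect array-to-array spread, part or all of which may be technical.

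TGF-beta is a secreted protein, held latent until it is activated. The active ligand brings together a type II receptor (Tgfbr2) and a type I receptor (Tgfbr1), which phosphorylates Smad2 and Smad3; these join Smad4 and enter the nucleus to regulate genes. Smad7 blocks the receptor, Ski and Skil bind Smads on DNA and recruit corepressors, and Tgif1 is a homeodomain repressor that joins Smad2 complexes. In blood-forming tissue the pathway is known for restraining the division of stem and progenitor cells.

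Smad3 and Tgfb1 were the members that changed most clearly in MLL-AF9 leukemia, and their promoters are shown for that reason. RefSeq promoter windows (assembly GRCm38.p6) matched 6 of the 10 genes with 11 windows; the 250 bases before the annotated start were searched. Both sequences are written 5′ to 3′ on the strand of the gene, with GC boxes (GGGCGG, or CCGCCC where the box lies on the other strand) in capitals. The Smad3 window lies at chr9:63757995-63758244 on the minus strand and the Tgfb1 window at chr7:25686752-25687001 on the plus strand.
Smad3: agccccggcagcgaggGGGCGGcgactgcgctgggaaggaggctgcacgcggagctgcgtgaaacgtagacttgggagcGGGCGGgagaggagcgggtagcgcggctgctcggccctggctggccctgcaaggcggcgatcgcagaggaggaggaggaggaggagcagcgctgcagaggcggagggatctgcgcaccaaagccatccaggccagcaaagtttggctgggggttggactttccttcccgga
Tgfb1: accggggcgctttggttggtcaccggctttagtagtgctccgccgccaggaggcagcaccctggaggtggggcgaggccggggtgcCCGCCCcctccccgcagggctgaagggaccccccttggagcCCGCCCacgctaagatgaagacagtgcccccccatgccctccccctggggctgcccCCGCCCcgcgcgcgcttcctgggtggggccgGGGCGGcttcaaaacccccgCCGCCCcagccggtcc
The Smad3 window held 2 GC boxes and 69.2% G and C, and the Tgfb1 window 5 GC boxes and 75.2%, against a median of 52.4% over all 32851 windows. A GC box was present in 6 of the 11 windows of these genes and in 32.7% of all windows. The palindromic Smad binding element GTCTAGAC was in 0 of the 11 windows and 0.167% of all, and the CAGA box AGCCAGAC in 0 of the 11 and 1.05% of all. Both strands were searched, and the Smad binding element and the CAGA box share the letters AGAC but were counted apart. A match describes the letters and is not a site.

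Several facts of the whole series bear on these values. Rictor itself could not check the labels: its brightest probe set (1435698_at) had control and deleted means of 86.8 ± 4.80 and 87.5 ± 9.26 in MLL-AF9, and of 113 ± 26.0 and 104 ± 18.6 in MLL-NRIP3 (SD, n = 3 each), and no source used here says which exons were lost. Of its other tested probe sets, 1429810_at and 1441753_at were lower in deleted MLL-AF9 cells without overlap (24.5 to 26.5 against 29.3 to 32.9, and 14.8 to 19.4 against 21.3 to 23.2; limma adjusted p = 0.19 and 0.096), and 1453775_at read 113 ± 44.8 in deleted and 49.7 ± 14.8 in control MLL-NRIP3 cells (SD, n = 3 each, adjusted p = 0.16). The pan-leukocyte gene Ptprc was bright in every group, at 1555 ± 93.4 and 1583 ± 73.3 in MLL-AF9 and 1908 ± 296 and 1869 ± 72.8 in MLL-NRIP3 (SD, n = 3 each). Kit, a receptor of blood-forming progenitors, was also present, at 195 ± 36.4 and 143 ± 12.2 in MLL-AF9 and 341 ± 43.7 and 524 ± 102 in MLL-NRIP3 (SD, n = 3 each). In MLL-AF9, the female transcript Xist lay between 2348 and 2441 on control arrays and between 34.3 and 208 on deleted arrays, so sex and genotype cannot be told apart there. MLL-NRIP3 control arrays 1 and 2 stood apart, with hybridization control signals of 11.20 and 10.60 on the log2 scale against 9.31 to 9.53 on the other MLL-NRIP3 arrays, and Gapdh 5′ to 3′ ratios of 0.562 and 0.738 against 0.881 to 0.965. Median intensities were 8.16 to 8.36 in MLL-AF9 and 13.6 to 14.2 in MLL-NRIP3, so levels are compared only within a model.

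Markers of other cell states also moved with the deletion. In MLL-AF9 leukemia all 10 mature neutrophil markers measured were called higher, with summed intensities of 9168 to 13294 in controls and 29138 to 31644 in deleted cells, and 7 of 9 monocyte and macrophage markers were called lower, with sums of 3523 to 3881 and 2666 to 3071. In MLL-NRIP3 leukemia the neutrophil sum was 4916 to 21538 in controls and 1637 to 1954 in deleted cells, with 4 of 10 markers called lower. Immediate early and handling stress genes summed to 7561 to 8098 in MLL-NRIP3 controls and 10459 to 19055 in deleted cells, while the MLL-AF9 groups overlapped. All 18 had a positive difference in MLL-NRIP3, and 1 of them, Fos, was called. Promyelocyte and primary granule markers were higher in deleted MLL-AF9 cells (3 of 5 called, sums 9314 to 10036 and 11580 to 14170). Mast cell, basophil and eosinophil markers summed to 841 to 932 in controls and 494 to 628 in deleted cells of MLL-AF9, and to 514 to 568 and 742 to 2192 in MLL-NRIP3. These markers did not move alike. Of the 5 tested, 3 were negative and 2 positive in MLL-AF9, where only Prg2 was called, lower. In MLL-NRIP3 2 were negative and 3 positive, and no marker of this list was called. The summed B cell markers were lower in both models. The sums were 1423 to 1595 in controls and 1180 to 1301 in deleted cells of MLL-AF9. In MLL-NRIP3 they were 228 to 1164 and 78.5 to 119. Ighm, the brightest of the list, was called lower in each model, and Cd79b in MLL-AF9 alone. Of the 5 tested, 3 were negative and 2 positive in MLL-AF9, and 2 were negative and 3 positive in MLL-NRIP3. The summed T and NK cell markers were higher in MLL-AF9 (131 to 159 and 181 to 233) and overlapped in MLL-NRIP3. In MLL-AF9 only Nkg7 was called, and of 5 tested 2 were negative. The summed stromal and endothelial markers were lower in both models (101 to 120 and 62.2 to 90.1, then 128 to 241 and 79.3 to 92.6). Of the 2 tested, Pecam1 was called lower in both models. Kdr was not called, and read 14.6 to 16.9 in controls and 19.8 to 22.4 in deleted cells of MLL-NRIP3. The other stromal and endothelial markers lay under the brightness limit. Erythroid sums overlapped. No listed marker was at 0. The part of these shifts in the results below was not tested. In sorted populations such as these, fewer cells of a type and less RNA per cell cannot be told apart.

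The first comparison asked which of these genes responded to loss of Rictor in the MLL-AF9 model. Tgfb1, Smad3 and 1 probe set of Smad4 were called lower, by between 1.19- and 1.40-fold, and no member was called higher. A probe set was called when its adjusted p in limma, over all 22531 probe sets tested, was under 0.05. Of the 16 member probe sets 3 were called, all lower, where 6.05% of all probe sets were called and 3.08% were called lower. Fold changes are on the scale of log2(intensity + 16), which understates the change of dim probe sets. These calls rest on the spread of the MLL-AF9 arrays alone: with 1 spread for all 12 arrays, 0 of the 16 were called, against 0.919% of all probe sets.

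**Figure D1:**
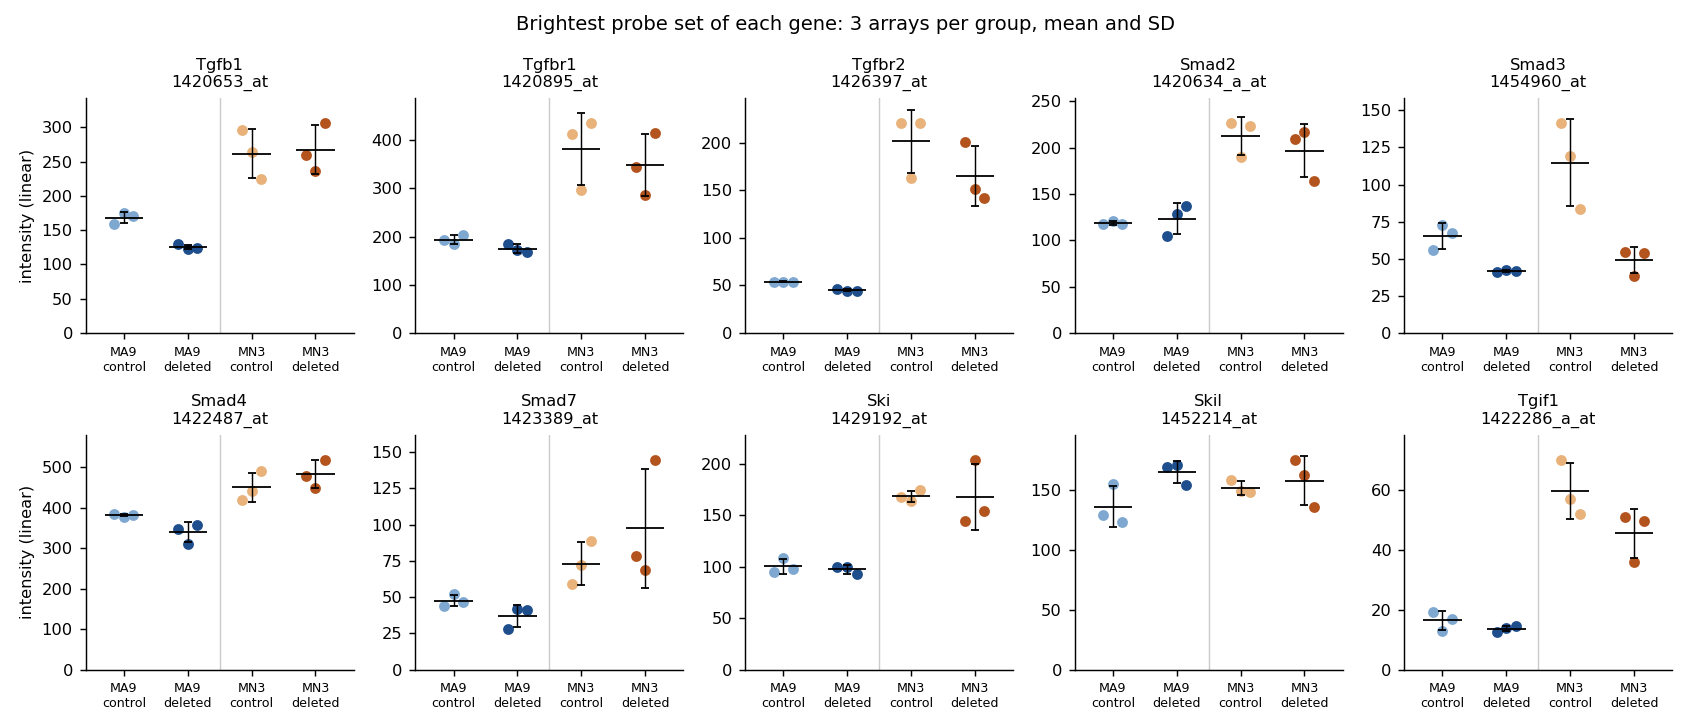
Intensity (linear, vertical axis) of the brightest probe set of each of the 10 genes on every array, with the 4 groups on the horizontal axis; points are arrays, lines the group mean and bars the SD (n = 3). MA9 is MLL-AF9, MN3 is MLL-NRIP3, and deleted is RictorΔ/Δ. Smad3 shows no overlap between control and deleted arrays in either model. Tgfb1, Tgfbr2, Smad4 and Smad7 show none in MLL-AF9, and Tgif1 shows none in MLL-NRIP3.

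Tgfb1, the ligand gene, gave intensities of 159, 175 and 170.1 on the MLL-AF9 control arrays and 129, 123 and 125 on the deleted arrays (probe set 1420653_at). Every deleted array lay below every control array, with group means of 168 ± 7.94 and 126 ± 3.13 (SD, n = 3 each). The log2 change was -0.38 ± 0.07 (SE), a 1.30-fold fall, with a limma adjusted p of 0.0078 and a 95% interval from -0.53 to -0.23. Leaving out any 1 of the 6 arrays kept the call (adjusted p from 0.011 to 0.043), whereas 1 spread for all 12 arrays ended it (0.24). A second Tgfb1 probe set, 1445360_at, did not show the fall: it read 94.7, 73.4 and 69.3 in controls and 55.3, 83.3 and 102 in deleted cells, so the groups overlapped. In MLL-NRIP3 leukemia Tgfb1 read 296, 264 and 225 in controls and 259, 236 and 306 in deleted cells on 1420653_at. The groups overlapped, with a log2 difference of 0.03 ± 0.15 (SE, limma adjusted p = 0.94, 95% interval -0.32 to 0.38). On 1445360_at they overlapped too, at 79.4, 79.1 and 65.3 in controls and 79.9, 61.7 and 65.2 in deleted cells. Platelets carry much TGF-beta. The summed platelet and megakaryocyte markers were 189 to 234 in MLL-AF9 controls and 151 to 188 in deleted cells, with Itga2b and Itgb3, 2 of 5 tested, called lower and 3 of 5 positive (median 0.02 on the log2 scale). Pf4, a platelet chemokine, read 6.91 to 7.88 and 6.62 to 9.45 around the brightness limit of 7.70, and Ppbp lay under it. In MLL-NRIP3 the sums overlapped, and Itga2b was called higher (38.6 to 46.0 and 108 to 135).

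The receptor genes were not called in either model. Tgfbr1, which encodes the type I receptor kinase, read 192, 185 and 204 in MLL-AF9 controls against 185, 173 and 167 in deleted cells (1420895_at), with a log2 difference of -0.14 ± 0.07 (SE, limma adjusted p = 0.32). In MLL-NRIP3 it read 413, 297 and 436 against 345, 286 and 416, and the groups overlapped there as well (log2 difference -0.12 ± 0.19, adjusted p = 0.77). Tgfbr2, which encodes the type II receptor that binds the ligand first, was more even between arrays in MLL-AF9. On 1426397_at it read 54.1, 53.1 and 54.0 in controls and 46.0, 44.3 and 44.0 in deleted cells. The groups did not overlap, and the log2 difference was -0.20 ± 0.08 (SE), but the limma adjusted p was 0.17; it was 0.044 when the spread was moderated without a trend on brightness. In MLL-NRIP3 leukemia Tgfbr2 read 221, 163 and 221 in controls and 201, 151 and 142 in deleted cells, with overlap and a log2 difference of -0.27 ± 0.18 (SE, adjusted p = 0.47). The dimmer probe set 1425444_a_at ranged from 5.39 to 6.45 in MLL-AF9 and from 15.5 to 18.1 in MLL-NRIP3. Of the receptor probe sets that were not tested, 1420893_a_at of Tgfbr1 was higher in deleted cells without overlap in both models, opposite in sign to 1420895_at, at 4.05 to 4.50 in controls and 4.54 to 4.72 in deleted cells of MLL-AF9 and 5.78 to 5.97 and 6.32 to 6.96 in MLL-NRIP3. On the others the groups overlapped: 1422019_at of Tgfbr2 stayed at or below 3.37; 1420894_at of Tgfbr1 was also under the limit.

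Smad3, which carries the receptor signal to the nucleus, had the most negative difference of the 16 probe sets in both models. In MLL-AF9 leukemia it read 55.7, 72.8 and 67.0 in controls and 41.3, 42.4 and 41.9 in deleted cells (1454960_at). No arrays overlapped, and the mean intensity in controls, 65.2 ± 8.73, was 1.56 times that in deleted cells, 41.9 ± 0.58 (SD, n = 3 each). The log2 change was -0.48 ± 0.09 (SE), a 1.40-fold fall, with a limma adjusted p of 0.011 and a 95% interval from -0.69 to -0.28. Leaving out any 1 of the 6 arrays kept the call (adjusted p from 0.0054 to 0.046), and 1 spread for all 12 arrays ended it (0.32).

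In MLL-NRIP3 leukemia Smad3 read 141, 119 and 83.4 in controls and 54.4, 38.7 and 54.1 in deleted cells. The lowest control array lay above the highest deleted array, and the control mean, 115 ± 29.3, was 2.34 times the deleted mean, 49.1 ± 8.96 (SD, n = 3 each). The log2 difference was -0.99 ± 0.20 (SE; 95% interval -1.44 to -0.54), and the limma adjusted p of 0.064 missed the threshold. Without control array 3, the lowest of the controls, the difference was -1.17 with an adjusted p of 0.014. The controls left in that fit were arrays 1 and 2 alone. Without control arrays 1 and 2, which stood apart, the difference was -0.62 with an adjusted p of 0.54, the lone control then being assumed to vary like the others. With 1 spread for all 12 arrays Smad3 was the 1 member called in MLL-NRIP3 (adjusted p = 0.0030), where 12.6% of all probe sets were called.

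The Smad3 values rest on 1454960_at alone. Its 2 other probe sets were under the brightness limit and not tested: 1450471_at read 4.51, 4.74 and 4.13 in MLL-AF9 controls against 3.77, 5.45 and 4.64 in deleted cells, and 9.32 to 14.3 against 8.54 to 11.1 in MLL-NRIP3. The other, 1450472_s_at, read 4.69 to 5.88 against 4.77 to 5.12 in MLL-AF9 and 9.22 to 12.8 against 7.78 to 9.33 in MLL-NRIP3. In neither of these did the groups separate.

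Smad2, the partner of Smad3 at the receptor, was not called in either model. On 1420634_a_at it read 118, 121 and 117 in MLL-AF9 controls against 104, 129 and 137 in deleted cells, a log2 difference of 0.04 ± 0.09 (SE, limma adjusted p = 0.85). In MLL-NRIP3 it read 226, 189 and 223 against 209, 217 and 164, with a difference of -0.11 ± 0.15 (SE, adjusted p = 0.75). The dimmer 1442062_at read 22.8, 23.0 and 29.7 in MLL-AF9 controls against 18.7, 22.9 and 17.8 in deleted cells, and 30.0 to 41.3 against 28.9 to 33.7 in MLL-NRIP3. The groups overlapped on both Smad2 probe sets and in both models.

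Smad4, the shared partner of the receptor-activated Smads, had 3 bright probe sets, and they did not move alike. In MLL-AF9 leukemia all 3 were lower in deleted cells with no overlap. The probe set 1422486_a_at read 280.1, 263 and 249 in controls and 221, 214 and 221 in deleted cells, a log2 change of -0.25 ± 0.07 (SE, limma adjusted p = 0.046). That call is the least firm of the 3: it ended without any 1 of the arrays except control 3 (adjusted p from 0.094 to 0.16), with the replicate number as a block (0.077), without the brightness filter (0.069) and with 1 spread for all arrays (0.44). On 1422485_at the values were 181, 175 and 207 against 148, 151 and 158 (log2 difference -0.27 ± 0.08, adjusted p = 0.060), and on 1422487_at 384, 378 and 382 against 348, 311 and 358 (-0.16 ± 0.07, adjusted p = 0.19).

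In MLL-NRIP3 leukemia the Smad4 probe sets parted. On 1422486_a_at the arrays read 316, 282 and 252 in controls and 246, 217 and 235 in deleted cells, again with no overlap, with a log2 difference of -0.27 ± 0.13 (SE, limma adjusted p = 0.35). The values of 1422485_at were 237, 243 and 313 against 279, 286 and 292, and those of 1422487_at were 419, 442 and 489.9 against 479, 449 and 518. Both overlapped, and their differences, 0.12 ± 0.14 and 0.10 ± 0.12 (SE, adjusted p = 0.71 and 0.72), turned to -0.13 and -0.02 without control arrays 1 and 2, where 1422486_a_at stood at -0.11, so that the 3 signs differed with those arrays included and were negative without them. Over the 12 arrays with each model's mean removed, 1422485_at and 1422487_at correlated with each other (Pearson r = 0.78) and hardly with 1422486_a_at (r = -0.06 and 0.03). These are descriptions over arrays that share their groups.

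**Figure D2:**
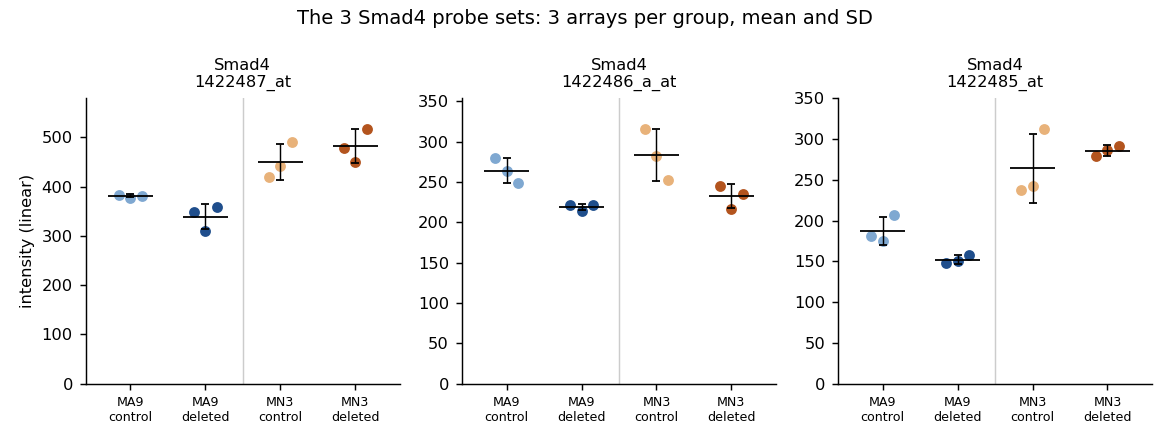
Intensity (linear, vertical axis) of the 3 Smad4 probe sets on every array in the 4 groups, with points for arrays, lines for means and bars for the SD (n = 3). All 3 sit lower in deleted MLL-AF9 cells; in MLL-NRIP3 only the middle panel, 1422486_a_at, keeps the groups apart.

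The genes that restrain the pathway were not called in either model. Smad7, the inhibitory Smad and itself a target of the pathway, read 43.9, 51.8 and 46.9 in MLL-AF9 controls against 27.9, 41.9 and 41.0 in deleted cells (1423389_at). These groups did not overlap, but the difference of -0.27 ± 0.11 (SE) had a limma adjusted p of 0.20. In MLL-NRIP3 Smad7 read 58.8, 72.0 and 88.4 against 78.6, 68.9 and 145, so that deleted array 3 alone stood above the controls, and the log2 difference was 0.30 ± 0.25 (SE, adjusted p = 0.57). A second Smad7 probe set, 1443771_x_at, was not tested; it read 3.69 to 4.23 in MLL-AF9 controls and 3.27 to 3.41 in deleted cells, without overlap, and 2.13 to 3.61 over the MLL-NRIP3 arrays.

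Skil, which encodes SnoN, had the largest positive difference of the 16 in MLL-AF9 leukemia. It read 129, 155 and 123 in controls and 169, 171 and 154 in deleted cells (1452214_at), with control array 2 overlapping the deleted group. The log2 difference was 0.26 ± 0.09 (SE, limma adjusted p = 0.12), and without control array 2 the adjusted p was 0.038. In MLL-NRIP3 Skil read 158, 149 and 148 against 175, 163 and 135, a difference of 0.04 ± 0.14 (SE, adjusted p = 0.90). Its dim probe set 1422054_a_at, not tested, read 5.64 to 8.12 in MLL-NRIP3 controls and 9.11 to 10.7 in deleted cells, with no overlap, and 4.15 to 5.10 over the MLL-AF9 arrays.

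Ski, the founding member of that repressor family, read 95.04, 108 and 97.6 in MLL-AF9 controls against 99.9, 100.1 and 92.5 in deleted cells (1429192_at, log2 difference -0.04 ± 0.08, SE, limma adjusted p = 0.86). In MLL-NRIP3 it read 167, 163 and 174 against 144, 204 and 154, with a difference of -0.02 ± 0.15 (SE, adjusted p = 0.96). The second Ski probe set, 1426373_at, overlapped between groups in both models as well, at 36.3 to 53.0 against 32.6 to 39.7 in MLL-AF9 and 52.5 to 68.9 against 60.4 to 73.5 in MLL-NRIP3. Tgif1 was dim in MLL-AF9, at 19.3, 12.9 and 17.0 in controls and 12.7, 13.8 and 14.5 in deleted cells (1422286_a_at, log2 difference -0.12 ± 0.07, SE, adjusted p = 0.39). In MLL-NRIP3 it read 70.0, 57.0 and 51.9 against 50.7, 36.0 and 49.7. Those groups did not overlap, by a gap of about 1 unit of intensity, and the log2 difference was -0.30 ± 0.16 (SE, adjusted p = 0.37).

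**Figure D3:**
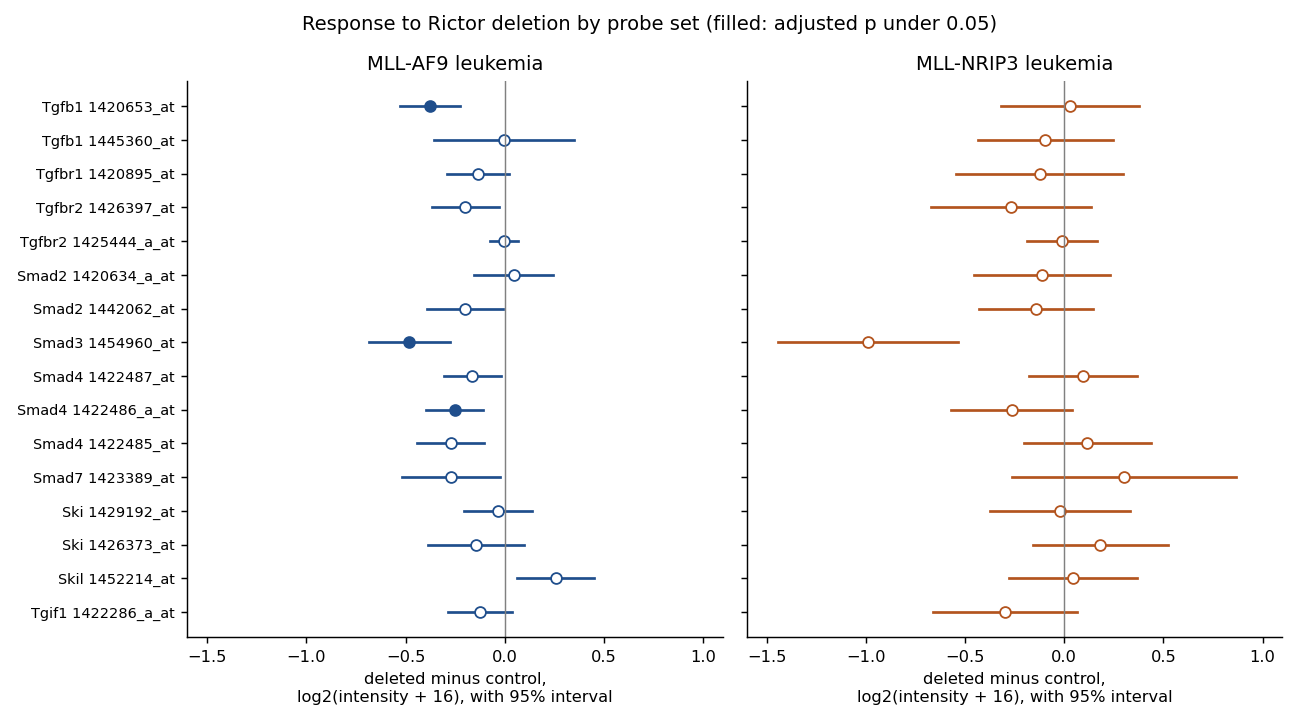
Deleted minus control on the log2(intensity + 16) scale (horizontal axis) for the 16 tested probe sets (vertical axis), with 95% intervals from limma, in MLL-AF9 (left) and MLL-NRIP3 (right); filled points have an adjusted p under 0.05. The filled points are Tgfb1, Smad3 and 1 Smad4 probe set in MLL-AF9; Smad3 in MLL-NRIP3 lies farthest from 0, at -0.99, and is not filled.

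As a group, 14 of the 16 probe sets had a negative difference in MLL-AF9 leukemia, with a median of -0.16. Of all probe sets 52.5% were negative, and their median was -0.01. The 14 include 1425444_a_at of Tgfbr2, at -0.004. It lay under the brightness limit on every MLL-AF9 array (5.39 to 6.45) and was tested only through its level in MLL-NRIP3. They also include 1445360_at of Tgfb1, at -0.004, whose mean intensity was 79.1 in controls and 80.3 in deleted cells. The sign of neither shows a fall. In MLL-NRIP3 leukemia 10 of 16 were negative with a median of -0.06, against 49.7% of all and a median of 0.00. Deleted arrays lay wholly below control arrays for 7 of the 16 in MLL-AF9 (14.1% of all probe sets), for 3 of 16 in MLL-NRIP3 (12.5%), and in both models for 2 of 16, Smad3 and 1422486_a_at of Smad4 (2.62%). These counts include several probe sets of 1 gene, which share their transcript.

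The second comparison, Rictor deletion in MLL-NRIP3 leukemia, gave no call among the 16 in limma, and 1 of the 16 (Smad3) had an unadjusted p under 0.05. Of all probe sets 0.905% were called, 0.435% were called lower, and 17.2% had an unadjusted p under 0.05. In MLL-AF9 leukemia 9 of the 16 had an unadjusted p under 0.05, against 19.9% of all.

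The third comparison asked whether the response to deletion differed between the models. No member was called in limma at an adjusted p under 0.05, against 3.81% of all probe sets, and 3 of the 16 had an unadjusted p under 0.05. Tgfb1 (1420653_at) differed by 0.41 on the log2 scale, MLL-NRIP3 minus MLL-AF9, with a 95% interval from 0.07 to 0.74 and an adjusted p of 0.18. Smad3 differed by -0.51 (95% interval -0.98 to -0.03, adjusted p = 0.25), so a fall larger in MLL-NRIP3 was not shown. Without MLL-NRIP3 control arrays 1 and 2 it differed by -0.14 (-0.72 to 0.44, adjusted p = 0.95). For 1422485_at of Smad4 the difference was 0.39 (0.04 to 0.74, adjusted p = 0.23), for Smad7 0.58 (-0.04 to 1.19, adjusted p = 0.32), for 1422487_at of Smad4 0.26 (-0.03 to 0.55, adjusted p = 0.35) and for 1422486_a_at -0.01 (-0.32 to 0.29, adjusted p = 0.98). Without those 2 control arrays the differences were 0.61 for Tgfb1, 0.33 for Smad7, and 0.15, 0.14 and 0.14 for 1422485_at, 1422487_at and 1422486_a_at of Smad4.

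Across the 12 arrays, with each model's mean removed, Smad3 varied with 1422486_a_at of Smad4 (Pearson r = 0.89) and with Tgif1 (r = 0.79). The genes most like Smad3 over these arrays were Ramp1 (r = 0.98), Ninj1 (r = 0.97) and Ssh1 (r = 0.97). Ramp1, which encodes a receptor activity-modifying protein, read 34.7, 39.0 and 36.6 in MLL-AF9 controls against 21.2, 24.3 and 21.4 in deleted cells, and 81.4, 73.4 and 52.4 against 32.2, 13.6 and 24.9 in MLL-NRIP3. As for Smad3, control array 3 was the lowest MLL-NRIP3 control. Those most like Tgfb1 were Tnfaip3 (r = 0.93), which encodes the NF-kappaB inhibitor A20, Klrb1f (r = 0.91) and Pros1 (r = 0.90), which encodes protein S. Tnfaip3 read 121, 147 and 130.1 in MLL-AF9 controls against 99.6, 85.1 and 94.3 in deleted cells, and 151, 116 and 80.5 against 120.02, 114 and 173 in MLL-NRIP3. These correlations are descriptions of 12 arrays that share their groups.

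Beyond these genes, 97 others of the pathway were listed by role, and 73 could be tested by their brightest probe set. In MLL-AF9 leukemia 6 rose, 2 fell and 65 were not called, against 7.08% of all genes called. With 1 spread for all 12 arrays none of these 8 was called. In MLL-NRIP3 leukemia 0 were called, against 1.15% of all genes, and the medians were -0.02 and 0.02 on the log2 scale.

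Of 18 target genes of TGF-beta tested, 3 of which (Ski, Skil and Smad7) are described above, 4 rose and 0 fell in MLL-AF9 leukemia. Of all genes 7.08% were called there, and with 1 spread for all 12 arrays these 4 calls ended. Tgfbi, an extracellular matrix protein induced by TGF-beta, rose from 157 ± 15.9 to 219 ± 10.6, and its 3 other tested probe sets were also called, with the same sign. Cdkn1c, the cell cycle inhibitor p57, rose from 10.2 ± 0.88 to 17.7 ± 2.73, and Bhlhe40, a transcription factor, from 20.2 ± 2.65 to 37.9 ± 4.57. Id2, an inhibitor of helix-loop-helix factors, rose from 70.6 ± 13.3 to 119 ± 26.7 (all SD, n = 3; adjusted p in limma of 0.0072, 0.0070, 0.0031 and 0.021 in this order). The list's median was -0.01, and the other 14 were not called. The list was not split into genes that TGF-beta raises and genes that it lowers, so these calls do not measure pathway output. The call of Id2 ended without control array 1 or 3 or deleted array 1 or 3 (adjusted p up to 0.080), and that of Id2 and of Nrros, described next, also when the spread was moderated without a trend.

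In MLL-NRIP3 leukemia none of the 18 was called by limma. Tgfbi read 110 ± 41.0 in controls and 233 ± 58.3 in deleted cells (adjusted p = 0.12), Fn1, the matrix protein fibronectin, 64.4 ± 26.7 and 183 ± 84.8 (adjusted p = 0.13), and Id2 66.3 ± 31.9 and 20.4 ± 1.30 (SD, n = 3 each, adjusted p = 0.087). Id2 thus stood on opposite sides in the models. The difference of its responses was called (log2 difference -1.73, limma adjusted p = 0.011). Without MLL-NRIP3 control arrays 1 and 2 this difference was -1.14, and with a covariate for hybridization signal the call ended.

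Among genes that hold or activate the ligands, 1 of 7 tested rose and 1 fell in MLL-AF9 leukemia. The ligand genes Tgfb2 and Tgfb3 were on the same list but were not tested. The share of all genes called there was 7.08%. Mmp9, a protease that can release latent TGF-beta and is also a neutrophil granule enzyme, rose from a mean of 20.4 ± 8.17 to one of 58.9 ± 6.66 (SD, n = 3 each; adjusted p in limma 9.1e-04), where the mature neutrophil markers above rose too. Nrros, which tethers latent TGF-beta on myeloid cells, fell (809 ± 81.6 against 658 ± 25.0, SD, n = 3 each; adjusted p = 0.034), and its call was lost without control array 3 or any 1 deleted array (adjusted p up to 0.13). In MLL-NRIP3 Nrros read 1363 ± 260 and 897 ± 41.7 (SD, n = 3 each, adjusted p = 0.11), and Furin, which cuts the TGF-beta precursor, differed by -0.79 ± 0.22 on the log2 scale (SE, adjusted p = 0.13).

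Of 6 genes tested from a list of other family ligands, which also holds the protease gene Bmp1, 1 rose in MLL-AF9 leukemia. This was Inhba, the activin A subunit, at 13.3 ± 3.96 in controls and 23.4 ± 2.07 in deleted cells (SD, n = 3 each, limma adjusted p = 0.017). The call was kept in 2 of the 6 omissions of 1 array and lost without control array 2 or 3 or deleted array 1 or 2 (adjusted p up to 0.065). Of 9 other receptors 1 fell: Bmpr2, the type II receptor of bone morphogenetic proteins, 238 ± 8.41 in controls and 176 ± 24.0 in deleted cells (SD, n = 3 each; adjusted p = 0.021). The call was lost without control array 2 or 3 or deleted array 2 (adjusted p up to 0.067). Its 2 other tested probe sets were not called, and 1 of them had the same sign. The counts for both lists stand against 7.08% of all genes called in MLL-AF9.

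No gene was called in either deletion comparison among the other Smads (2 tested), the regulators of receptors and Smads (14 tested), the Smad cofactors and corepressors (11 tested) or the kinases of the Smad-independent branch (10 tested). Smad5, which carries signals of bone morphogenetic proteins, read 94.6 ± 4.49 and 78.0 ± 6.71 in MLL-AF9 (adjusted p = 0.12), and Smad1 82.5 ± 3.98 and 95.4 ± 2.38 (SD, n = 3 each, adjusted p = 0.20). Hipk2, a nuclear kinase that binds Smad corepressors, read 398 ± 33.5 and 335 ± 5.64 (adjusted p = 0.072), and Zeb2, a Smad-interacting repressor, 277 ± 38.5 and 335 ± 8.16 (SD, n = 3 each, adjusted p = 0.11). In MLL-NRIP3 Zeb2 read 348 ± 61.6 and 522 ± 81.4 (SD, n = 3 each, adjusted p = 0.15).

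**Figure D4:**
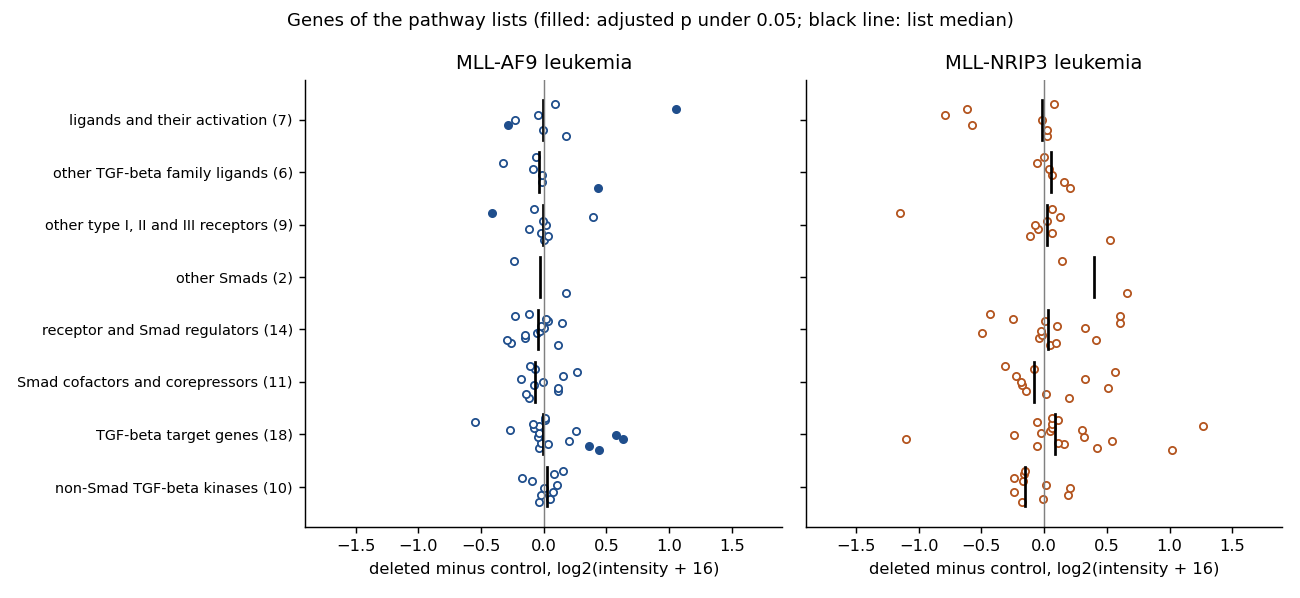
Deleted minus control on the log2(intensity + 16) scale (horizontal axis) for the tested genes of the 8 pathway lists (vertical axis, number of genes in brackets), in MLL-AF9 (left) and MLL-NRIP3 (right); filled points have a limma adjusted p under 0.05 and black lines are list medians. The target list holds 4 filled points in MLL-AF9, all above 0, and no point is filled in MLL-NRIP3.

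The difference of responses was called for 5 of the 73 genes, against 4.41% of all genes. Tgfbr3, the co-receptor betaglycan, read 5.58 ± 0.32 and 5.57 ± 0.72 in MLL-AF9 and 8.71 ± 1.43 and 19.8 ± 6.52 in MLL-NRIP3 (SD, n = 3 each), a log2 difference of responses of 0.52 (limma adjusted p = 0.026). All MLL-AF9 arrays lay under the brightness limit of 7.70, so Tgfbr3 was tested only through its level in MLL-NRIP3, and a differing response is not shown. Nedd4l, a ubiquitin ligase that degrades activated Smad2 and Smad3, read 89.4 ± 8.44 and 69.9 ± 5.07 in MLL-AF9 and 126 ± 14.1 and 173 ± 9.86 in MLL-NRIP3 (SD, n = 3 each), a difference of 0.71 (adjusted p = 0.034). Its other tested probe set had the same sign and was not called. The other genes called were Id2, Mmp9 (-1.67, limma adjusted p = 0.036) and Fn1 (1.30, limma adjusted p = 0.039). Fn1 read only 10.1 ± 0.42 and 9.42 ± 2.43 in MLL-AF9 (SD, n = 3 each). That is near the brightness limit, so its difference rests on the values in MLL-NRIP3. Without MLL-NRIP3 control arrays 1 and 2 the calls of Tgfbr3, Nedd4l, Id2 and Mmp9 ended (adjusted p from 0.074 to 0.31), and that of Fn1 stayed (0.048).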

How the data were processed

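The deposited table holds intensities on a linear scale, 1 per probe set and array, as made by the authors; no source used here names the background correction, summary or normalization. Per the labels' protocols, biotinylated cRNA came from 7 µg of total RNA. Probe sets were named from the platform annotation. Of 45101, 34958 had 1 gene symbol, 932 several and 9211 none; those with 1 symbol and a mean over the 12 arrays at or above the 40th percentile (an intensity of 7.70) were tested, 22531 in all.

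Values were used as log2(intensity + 16) and fitted per probe set with limma 3.58.1 (lmFit, eBayes with a trend) in R 4.3.3, each model on its own 6 arrays, since the median SD of log2 values was 0.08 and 0.06 in the MLL-AF9 groups and 0.14 in both MLL-NRIP3 groups. The difference of responses was fitted on all 12 arrays with weights per model. Tests were 2-sided, with p-values adjusted by the Benjamini-Hochberg method over all probe sets tested. The number of arrays limits the precision. The fits were tested on simulated data. Groups and replicate numbers came from the sample titles.

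The members, lists, tests and alternatives were chosen with earlier results of these data known. All members were named with every probe set they had. Of each pathway list the up to 3 genes with the smallest unadjusted p in each deletion comparison could be named, and the 3 genes most like the member with the smallest p in each; Rictor, Kit and Ptprc were always given. Xist, Pf4, Ppbp and the other cell type markers named singly stand outside this rule and were chosen after their values were seen. Genes of the lists were taken by their brightest probe set. Tables and figures used Python 3.11.15, pandas 2.3.3 and matplotlib 3.10.9.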

Additional observations from a re-analysis of the deposited data

Results flagged for a closer look

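The difference between the models' responses to Rictor deletion was called, by its own test in limma, for 5 other genes of the pathway and for Kit. Id2 1422537_a_at differed by -1.73 on the log2 scale, MLL-NRIP3 minus MLL-AF9 (95% interval -2.47 to -0.996, adjusted p = 0.011), and kept its call in 12 of 12 omissions of 1 array. Mmp9 1416298_at differed by -1.67 (adjusted p = 0.036), with the call kept in 3 of 12 omissions. Fn1 1426642_at differed by 1.30 (adjusted p = 0.039), with the call kept in 3 of 12. Tgfbr3 1433795_at differed by 0.52 (adjusted p = 0.026), with the call kept in 8 of 12, but its MLL-AF9 arrays all lay under the brightness limit, so that a differing response is not shown. Nedd4l 1423269_a_at differed by 0.71 (adjusted p = 0.034), with the call kept in 7 of 12. The other tested probe set of Nedd4l had the same sign and was not called, while those of Id2 and Mmp9 were called. Kit 1452514_a_at differed by 0.98 (adjusted p = 0.044), with the call kept in 4 of 12. Of these calls, 1 spread for all 12 arrays ended those of Mmp9, Tgfbr3 and Fn1, a fit without a trend those of Mmp9, Tgfbr3, Fn1 and Kit, a pseudocount of 1 that of Fn1, one of 64 that of Kit, a replicate block those of Nedd4l and Kit, and the hybridization covariate those of Mmp9, Tgfbr3, Id2 and Kit. Without MLL-NRIP3 control arrays 1 and 2 Fn1 alone kept its call.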

How the results depend on the processing

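With 1 equal spread for all 12 arrays, 0 members were called in MLL-AF9 leukemia and 1, Smad3, in MLL-NRIP3 leukemia; all probe sets called then numbered 207 and 2848, against 1363 and 204. Omission of 1 array gave 2 to 3 member calls in MLL-AF9, 0 to 1 in MLL-NRIP3 and 0 in the difference of responses, and between 671 and 1264, 34 and 1124, and 392 and 1508 calls in all. Without MLL-NRIP3 control arrays 1 and 2, 15 probe sets were called in MLL-NRIP3 and 333 in the difference; with a covariate for hybridization signal the counts were 50 and 396, against 204 and 859. Without the brightness filter 117 and without a trend 122 were called in MLL-NRIP3, and the mean of each gene's probe sets gave 890, 116 and 550 calls. Titles share replicate numbers, but same-numbered arrays did not deviate together (r from -0.12 to 0.05, against -0.15 to 0.17 for the other pairs). With 3 arrays per group this shows no pairing by number but cannot exclude one. With a replicate block 2, 0 and 0 members and 1246, 157 and 665 probe sets were called.

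Signs turned for values near 0. Without MLL-NRIP3 control arrays 1 and 2 and with the covariate, Smad4 in MLL-NRIP3 moved to -0.024 and -0.041 (1422487_at) and to -0.13 and -0.11 (1422485_at), and 1422486_a_at in the difference of responses to 0.14 and 0.023. Quantile normalization gave 0.018 for that difference and 0.0083 for Ski in MLL-NRIP3. Over omissions of 1 array, ranges that crossed 0 for values given in the report were -0.027 to 0.15 for Smad2 and -0.068 to 0.014 for Ski in MLL-AF9; in MLL-NRIP3 they were -0.069 to 0.12 for Tgfb1, -0.29 to 0.0057 for Tgfbr1, -0.19 to 0.0045 for Smad2, -0.16 to 0.069 for Ski and -0.028 to 0.14 for Skil; and -0.091 to 0.064 for 1422486_a_at in the difference. Ranges of differences that the report does not print crossed 0 as well, among them Tgfb1 1445360_at and Tgfbr2 1425444_a_at in MLL-AF9 and Tgfbr1 and Ski 1429192_at in the difference of responses. The cause was not tested. Dim probe sets, 7 of 23, were left untested by the filter.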
